A study of Saccharomyces cerevisiae with 12 samples.

Results

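The transcript response of Saccharomyces cerevisiae to the fungicide fenpropimorph was described from 6 of the 12 Affymetrix arrays of the study, 3 from cultures given fenpropimorph at 0.313 ppm and 3 from cultures given only its solvent, dimethylformamide (control). The arrays were chosen by their titles, which name the compound, the dose and the day of culture. All cultures were of strain S288C, a haploid laboratory strain of mating type alpha. They were diluted to an OD600 of 0.1 and grown for 1 h at 30 °C before fenpropimorph or solvent was added. Harvest followed 5 h later. Each of 3 independent days gave 1 array per group, and fenpropimorph was dissolved in dimethylformamide, so all 6 cultures received the solvent. A further 6 arrays, of cultures given tomatidine at 0.625 ppm or tomatine at 13.9 ppm in the same solvent, are used where fenpropimorph is set against another compound. A second label field names tomatidine for each of the samples, solvent cultures among them, and was disregarded.

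Fenpropimorph is a morpholine fungicide that blocks steps of ergosterol synthesis, chiefly the sterol C-14 reductase made by ERG24 and the sterol C-8 isomerase made by ERG2. Ergosterol is the main sterol of the yeast plasma membrane. Cells make it from acetyl-CoA through mevalonate, farnesyl diphosphate and squalene, and much of the pathway needs oxygen and heme. The transcription factors UPC2 and ECM22 switch on sterol genes when sterol runs low. UPC2 also serves sterol import and the anaerobic cell wall genes of the DAN and TIR families.

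The values are linear signals, given below in the order of days 1, 2 and 3. The median signal of the 6 arrays lay between 77.3 and 78.6, and precision is limited by there being 3 arrays a group. Log2 fold changes are fenpropimorph over control and are followed by their standard error (n = 3 arrays in each group). A gene is called, and said to rise or fall, at a Benjamini-Hochberg adjusted p under 0.05 in limma over all 9275 probe sets tested. Nothing in the labels beyond the day sets the cultures of a group apart. The spread within a group is thus that between 3 days of culture. The standard errors and p-values pool this spread over all groups of the study, tomatidine and tomatine arrays included. They therefore do not measure the spread of the fenpropimorph and control arrays alone. For ERG24, for example, the tomatine arrays were the least even, with signals of 383, 244 and 395.

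Fenpropimorph changed 2808 probe sets (30.3% of those tested), of which 1239 were higher and 1569 lower. With 1 probe set for each of 5656 named genes, 1009 genes rose (17.8%) and 1210 fell (21.4%). Counts given below for gene lists are to be read beside these shares. Large changes went mostly upwards. Among the called genes, 211 were at least 2-fold higher (3.73% of all genes) and 43 at least 2-fold lower (0.76%). At 4-fold the counts were 44 higher and 7 lower, and at 8-fold 16 higher and 0 lower. The median log2 fold change was 0.49 among genes that rose, -0.36 among genes that fell and -0.06 over all genes. All 3 fenpropimorph arrays lay above all 3 control arrays for 1330 genes (23.5%) and below them for 1804 (31.9%). Of the 2219 called genes, 2191 had groups that did not overlap, so a lack of overlap stated below adds little to a call.

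**Figure D1:**
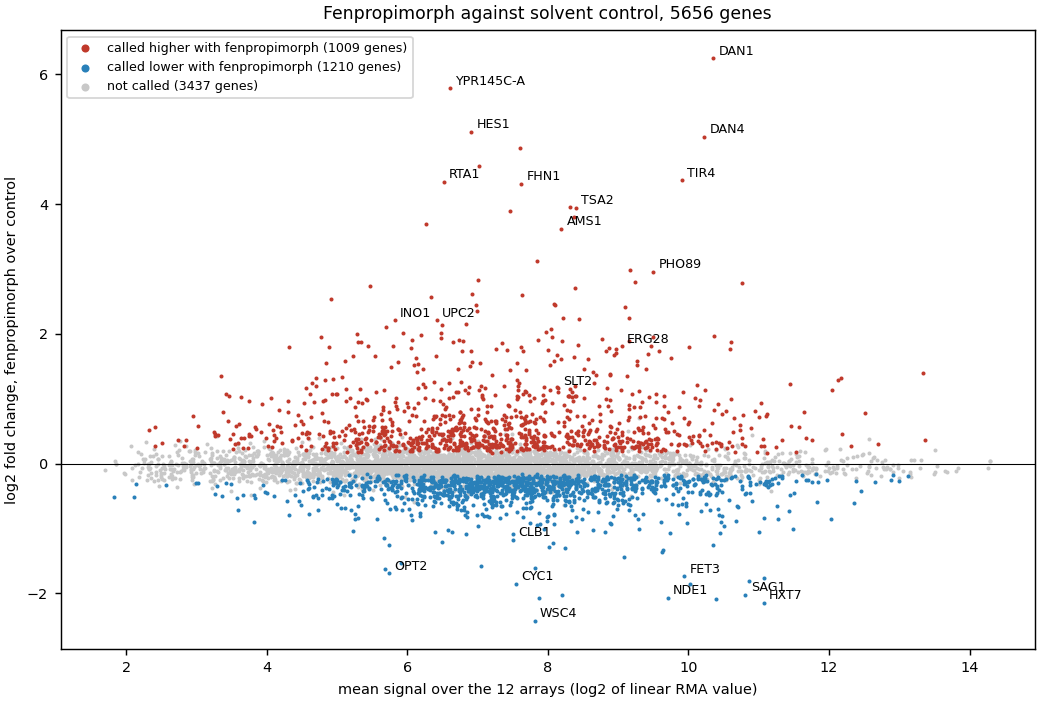
Log2 fold change of fenpropimorph over control against the mean signal of each of 5656 genes, with genes called higher in red, genes called lower in blue and the rest in grey. The 1210 genes that fell form a dense band near 0, while the 1009 genes that rose reach a log2 fold change of 6.25 at DAN1.

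The 3 fenpropimorph arrays stood together. Correlations of log2 signals ran from 0.996 to 0.997 within the 2 groups and from 0.978 to 0.984 between them. On the first principal component of all 12 arrays, which held 59.8% of the variance, the fenpropimorph arrays scored 27.6, 33.1 and 33.4 and the other 9 arrays scored -16.3 to -3.1. The log2 ratio of 3' to 5' probe sets of ACT1, a measure of RNA integrity, was 0.47, 0.35 and 0.29 with fenpropimorph, against 0.38, 0.33 and 0.34 in control. For the gene SPT15 this ratio was larger on every array, at 2.36, 2.26 and 2.41 with fenpropimorph and 2.26, 2.53 and 2.21 in control. ACT1 itself, which encodes actin, had signals of 5530, 5730 and 6110 with fenpropimorph and 5170, 5400 and 5420 in control, and did not pass the test (log2 fold change 0.12, 95% interval -0.01 to 0.25). Markers of a cells, which an alpha culture should lack, had summed signals of 194 to 206 with fenpropimorph and 177 to 211 in control over 6 genes, with the pheromone receptor gene STE2 at 6.24 to 6.68 with fenpropimorph and 6.59 to 7.4 in control. STE2 was among the dimmest of the 6. MFA2 was at 89.7 to 98.0 with fenpropimorph and 85.5 to 103 in control. MFA1 was at 58.5 to 65.2 with fenpropimorph and 55.8 to 66.6 in control. Of the 6 a-cell markers, BAR1 was called higher (log2 fold change 0.39), with an adjusted p of up to 0.12 without single arrays. Markers of sporulating cells summed to 81.3 to 86.6 with fenpropimorph and 84.6 to 87.1 in control over 6 genes, with NDT80 called higher (0.47) and SPS4 lower (-0.51 on the log2 scale).

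All 14 genes of late ergosterol synthesis, from squalene epoxidase to the last reductase, rose, with a median log2 fold change of 1.17. The genes of both fenpropimorph targets were among them. ERG24 had signals of 851, 860 and 924 with fenpropimorph, against 343, 359 and 333 in control. ERG2 had 7230, 7210 and 7490 with fenpropimorph, against 3010, 2990 and 2790 in control. In each gene the 3 treated arrays were close to one another and far above the control arrays. The log2 fold changes were 1.35 ± 0.148 for ERG24 (adjusted p = 2.86e-05) and 1.32 ± 0.0707 for ERG2 (adjusted p = 6.81e-08).

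Between these target steps lies the complex that removes the methyl groups at C-4 of the sterol ring. Its genes ERG28 and ERG26 rose most of the 14. ERG28, the scaffold of the complex, had signals of 1010, 826 and 1060 with fenpropimorph, against 297, 274 and 251 in control (log2 fold change 1.81 ± 0.096, adjusted p = 6.62e-08). ERG26, its decarboxylating dehydrogenase, had 866, 963 and 984 with fenpropimorph, against 303, 300 and 263 in control (log2 fold change 1.70 ± 0.0841, adjusted p = 4.41e-08). Neither gene had overlapping groups. ERG27, the ketoreductase, rose 2.31-fold and ERG25, the methyl oxidase, rose 2.19-fold.

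Upstream of ERG24, ERG1 (squalene epoxidase) rose 2.10-fold. The other genes of that stretch rose less. ERG7 (lanosterol synthase), ERG11 (lanosterol demethylase, the target of azole drugs) and NCP1 (the reductase that feeds it electrons) rose 1.75-fold, 1.74-fold and 1.76-fold. Downstream of C-4 demethylation, ERG5 and ERG3, both desaturases, rose 2.58-fold and 2.44-fold. ERG4, the final reductase, changed least of the 14, with signals of 2010, 1980 and 1920 with fenpropimorph and 1300, 1310 and 1280 in control (log2 fold change 0.60 ± 0.0618, adjusted p = 1.63e-05). ERG6, which methylates the side chain, was the least even across days. Its signals were 2120, 3200 and 3370 with fenpropimorph, against 1480, 1510 and 1450 in control. The day 1 treated culture was the low one, still above every control (log2 fold change 0.94 ± 0.137, adjusted p = 0.000278).

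**Figure D2:**
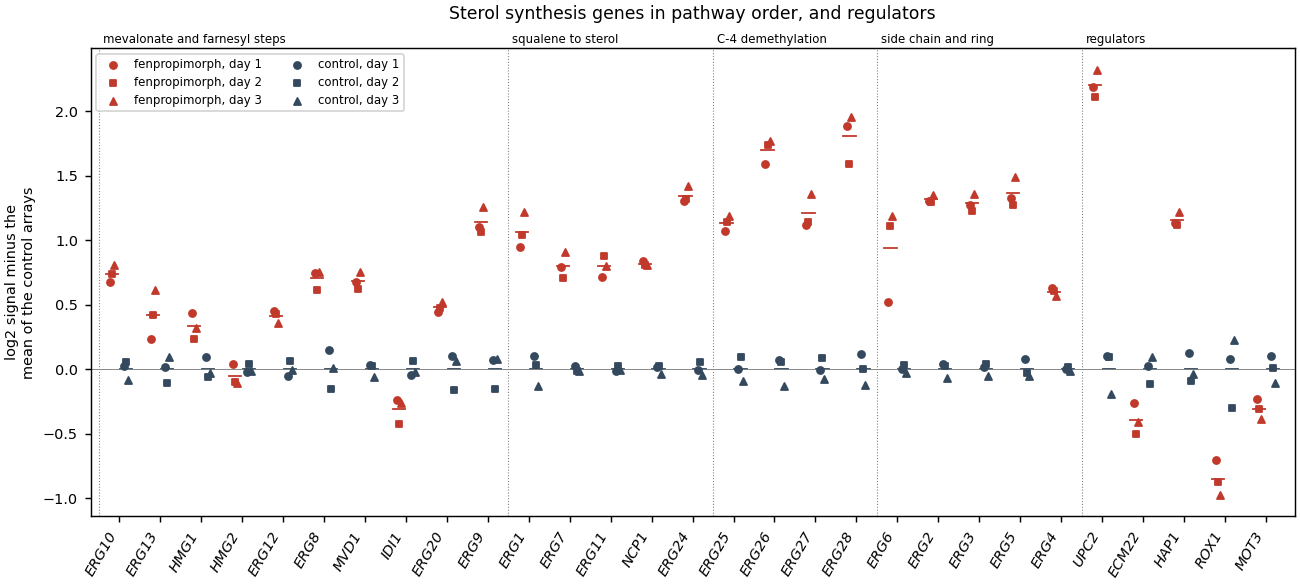
Log2 signal of each array minus the mean of the control arrays for genes of sterol synthesis in pathway order and for 5 regulators, with fenpropimorph arrays in red, control arrays in dark blue, a marker shape for each day and lines at the group means. The late genes from ERG1 to ERG4 all lie above control, at mean log2 fold changes of 0.60 to 1.81, and the early genes show smaller shifts, with HMG2 at -0.05 and IDI1 at -0.31.

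The early part of the pathway, from acetyl-CoA to squalene, moved less. Of its 10 genes, 8 rose and 1 fell, with a median log2 fold change of 0.45. ERG9, which makes squalene and so commits farnesyl units to sterol, had signals of 1810, 1760 and 2020 with fenpropimorph, against 884, 758 and 890 in control (log2 fold change 1.14 ± 0.0918, adjusted p = 2.07e-06). It was the 1 gene of these 10 that rose at least 2-fold. ERG10, the thiolase that starts the pathway, rose 1.67-fold. MVD1 and ERG8, which act on mevalonate phosphates, rose 1.61-fold and 1.63-fold, and the call of ERG8 was lost without the control array of day 2 (adjusted p = 0.0502).

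The isozymes of HMG-CoA reductase, the regulated step of the pathway, gave different results. HMG1 had signals of 757, 657 and 698 with fenpropimorph, against 596, 535 and 546 in control, with no overlap (log2 fold change 0.33 ± 0.0744, adjusted p = 0.00529). HMG2 had 685, 620 and 617 with fenpropimorph, against 653, 682 and 659 in control. Its groups overlapped and it was not called (log2 fold change -0.05, 95% interval -0.20 to 0.09). The difference between the isozymes was not tested. ERG13 (HMG-CoA synthase), ERG12 (mevalonate kinase) and ERG20 (farnesyl diphosphate synthase) rose 1.34-fold, 1.33-fold and 1.39-fold. ERG12 is covered by 4 probe sets, 3 of them called, with log2 fold changes from -0.13 to 0.55. IDI1, the isopentenyl diphosphate isomerase, fell, with 240, 212 and 237 with fenpropimorph, against 275, 297 and 280 in control (log2 fold change -0.31 ± 0.0809, adjusted p = 0.0129), a call lost without the fenpropimorph array of day 2 (adjusted p = 0.0603).

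Among 10 regulators of sterol and oxygen-responsive genes, 2 rose and 5 fell. UPC2 had signals of 181, 171 and 198 with fenpropimorph, against 42.5, 42.2 and 34.6 in control (log2 fold change 2.21 ± 0.142, adjusted p = 3.15e-07). Its paralogue ECM22 went the other way, with 104, 87.6 and 93.9 with fenpropimorph, against 126, 115 and 133 in control (log2 fold change -0.39 ± 0.0975, adjusted p = 0.00982). Neither gene had overlapping groups. ROX1, the repressor of hypoxic genes, had 29.4, 26.1 and 24.4 with fenpropimorph, against 50.8, 38.9 and 56 in control (log2 fold change -0.85 ± 0.116, adjusted p = 0.000161), so every treated array lay below every control array.

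Partners of ROX1 in repression shifted slightly downwards. TUP1, a general corepressor, had signals of 474, 419 and 399 with fenpropimorph and 558, 587 and 544 in control (log2 fold change -0.39 ± 0.0704, adjusted p = 0.00134). MOT3 (log2 fold change -0.31) and CYC8 (-0.24) also fell. Without single arrays the adjusted p of MOT3 reached 0.104 and that of CYC8 reached 0.132, and the count of 5 lower regulators was 3 without the fenpropimorph array of day 2 or day 3 or the control array of day 1. SUT1, which promotes sterol uptake, was not called (log2 fold change -0.01, 95% interval -0.20 to 0.19), as was SPT23, an activator of the desaturase gene OLE1 (-0.01, 95% interval -0.19 to 0.17). HAP1, the heme-responsive activator, is disrupted near its end by a transposon in S288C. Of its 3 probe sets, 1 was called at a log2 fold change of 1.16, and the lowest of the others was at 0.00.

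Of 21 genes for sterol uptake, esterification and acetylation, 9 rose, 5 of them at least 2-fold, and 12 were not called (median log2 fold change 0.13). AUS1, an ABC transporter that imports sterol in the absence of oxygen, had signals of 374, 332 and 368 with fenpropimorph, against 102, 108 and 101 in control (log2 fold change 1.79 ± 0.141, adjusted p = 1.77e-06). Its 6 probe sets spanned log2 fold changes of -0.12 to 1.79, with 5 called. PDR11, the second such importer, had 131, 105 and 120 with fenpropimorph, against 43.4, 37.6 and 42.4 in control (log2 fold change 1.53 ± 0.144, adjusted p = 8.07e-06). Both importers were clear of the control range on all 3 days.

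The same list holds enzymes that modify sterols. ATF2, an acetyltransferase that marks sterols for export, had signals of 722, 702 and 754 with fenpropimorph, against 200, 230 and 212 in control (log2 fold change 1.77 ± 0.0752, adjusted p = 1.57e-08). The sterol ester synthase ARE2 rose 2.10-fold and the sterol ester hydrolase YEH1 rose 2.02-fold. Of the 7 homologues of oxysterol-binding protein, which carry lipids between membranes, HES1 stood far from the rest. Its signals were 298, 364 and 422 with fenpropimorph, against 7.49, 14.4 and 10.1 in control, a 34.7-fold rise (log2 fold change 5.12 ± 0.215, adjusted p = 1.43e-08), or 3.82 on the log2 scale with 16 added to each signal before the log. OSH6 rose 1.45-fold. OSH7 fell by 0.23 on the log2 scale, and its adjusted p was up to 0.0734 without single arrays. KES1 (log2 fold change 0.01), SWH1 (-0.05), OSH2 (0.10) and OSH3 (0.03) were not called.

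The cell wall mannoproteins of anaerobic growth had the highest median of the 53 lists examined. All 7 measured members rose, 6 at least 2-fold, with a median log2 fold change of 2.79. DAN1 had signals of 3660, 3530 and 3380 with fenpropimorph, against 31.6, 98 and 32.2 in control. The day 2 control was about 3 times the other controls and still far below every treated array. The rise was 76.0-fold (log2 fold change 6.25 ± 0.344, adjusted p = 8.15e-08), and the log2 fold change was 6.79 without that control. DAN4 had 2860, 3330 and 4150 with fenpropimorph, against 102, 105 and 103 in control (log2 fold change 5.04 ± 0.196, adjusted p = 9.83e-09). TIR4 rose 20.7-fold, with 2810, 2830 and 2890 with fenpropimorph and 123, 153 and 138 in control. TIR3 rose 6.92-fold. TIP1, a mannoprotein of the same kind that is not in this list, fell instead, with 806, 658 and 614 with fenpropimorph, against 2300, 2730 and 2250 in control (log2 fold change -1.81 ± 0.111, adjusted p = 2.02e-07).

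All 10 seripauperin genes that have a probe set of their own rose at least 2-fold, with log2 fold changes from 1.13 to 2.15. These subtelomeric genes are near-identical in sequence, so that signal could be shared among them and their values are uncertain one by one. PAU3 had signals of 220, 268 and 305 with fenpropimorph, against 51.6, 68.4 and 58.2 in control, and PAU19 had 161, 199 and 271 with fenpropimorph, against 43, 48.3 and 50 in control. No treated array of either gene reached down to the control range.

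Heme synthesis and hypoxic isoforms had 7 of 17 genes higher. ANB1, the hypoxic form of translation factor eIF5A, had signals of 2870, 2410 and 2690 with fenpropimorph, against 645, 936 and 624 in control (log2 fold change 1.87 ± 0.15, adjusted p = 2.03e-06). HEM13, the oxygen-requiring coproporphyrinogen oxidase, had 1190, 1090 and 1090 with fenpropimorph, against 415, 440 and 371 in control (log2 fold change 1.46 ± 0.123, adjusted p = 3.08e-06). Both are classic ROX1 targets, and neither had overlapping groups. HEM14, the next heme enzyme, rose 2.08-fold. OLE1, the fatty acid desaturase, which also uses oxygen, had 1650, 1760 and 2280 with fenpropimorph and 1780, 1700 and 1820 in control and was not called (log2 fold change 0.09, 95% interval -0.21 to 0.38).

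**Figure D3:**
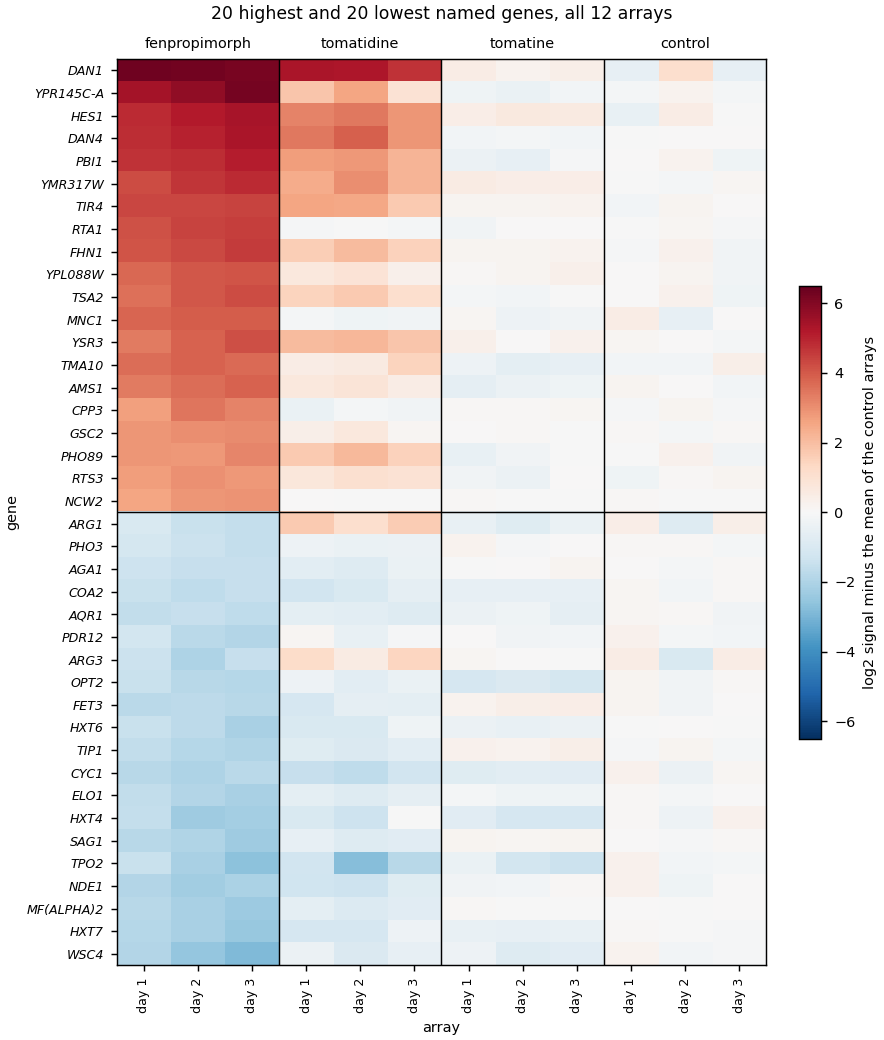
Log2 signal minus the mean of the control arrays on all 12 arrays for the 20 highest and 20 lowest of the called genes that moved the same way on each day, red above and blue below control. The 3 fenpropimorph columns are of one colour in each row, which follows from that selection. Most of the 20 lowest genes are on the blue side with tomatidine too, TPO2 most (log2 fold change -2.07 with fenpropimorph and -1.93 with tomatidine). ARG1 and ARG3 are blue with fenpropimorph and red with tomatidine.

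Several of the 20 genes with the highest rise belong to no sterol list. YPR145C-A, an uncharacterised reading frame, had signals of 263, 340 and 460 with fenpropimorph, against 5.74, 7.45 and 5.77 in control, 55.1-fold higher (log2 fold change 5.78 ± 0.322, adjusted p = 8.98e-08). YMR317W, also uncharacterised, rose 24.0-fold and PBI1 rose 29.1-fold. These 3 genes were dim in control, and with 16 added before the log their log2 fold changes were 4.02, 3.64 and 4.08. TSA2, a thioredoxin peroxidase, had 799, 1080 and 1240 with fenpropimorph, against 66.5, 79.5 and 55.4 in control (log2 fold change 3.95 ± 0.181, adjusted p = 2.66e-08). AMS1, the vacuolar mannosidase, had 759, 929 and 1070 with fenpropimorph, against 83.3, 75.3 and 65.1 in control (log2 fold change 3.62 ± 0.138, adjusted p = 8.67e-09). Neither TSA2 nor AMS1 had overlapping groups. YPL088W (15.5-fold), a putative aryl-alcohol dehydrogenase, MNC1 (14.9-fold), TMA10 (13.0-fold), CPP3 (8.7-fold) and RTS3 (7.08-fold) complete the set outside the lists described here. TMA10 was at 2.89 on the log2 scale with 16 added.

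Pleiotropic drug resistance in yeast is a network of transporters and membrane proteins under the factors PDR1 and PDR3. Of 25 genes, 13 rose and 3 fell, with a median log2 fold change of 0.41. RTA1, which gives resistance to aminocholesterol, had signals of 281, 329 and 352 with fenpropimorph, against 15.2, 16.9 and 15 in control (log2 fold change 4.35 ± 0.0976, adjusted p = 2.07e-10, and 3.40 with 16 added before the log). The ABC transporter gene PDR15 had 631, 644 and 589 with fenpropimorph, against 162, 147 and 134 in control (log2 fold change 2.07 ± 0.105, adjusted p = 4.73e-08). PDR10, its paralogue, had 518, 606 and 637 with fenpropimorph, against 155, 152 and 149 in control (log2 fold change 1.95 ± 0.0972, adjusted p = 4.58e-08). The treated and control arrays of these 3 genes were far apart.

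PDR5, the best known drug pump of the family, was not called on the probe set that stands for it. That probe set had signals of 21.7, 18.2 and 20.8 with fenpropimorph and 21.6, 27 and 19.3 in control, which overlap (log2 fold change -0.15, 95% interval -0.50 to 0.20). Of the 7 probe sets of PDR5, 1 was called, and it was higher (log2 fold change 0.42, adjusted p = 0.0181). They spanned log2 fold changes of -0.22 to 0.42. All were dim, with mean signals of 8.74 to 20.9, so a lack of response cannot be read from them. ICT1, a lysophosphatidic acid acyltransferase, rose 3.47-fold and the reductase gene GRE2 rose 5.34-fold. The list's 3 lower genes included RSB1 (log2 fold change -0.53), an exporter of long-chain bases, whose adjusted p was up to 0.0624 without single arrays. Their count was 1 without the fenpropimorph array of day 2 and 1 without the control array of day 3. Exporter genes outside the list were among the 20 largest falls. PDR12, which exports weak acids under another regulator, fell, with 126, 85.4 and 75.6 with fenpropimorph, against 345, 261 and 255 in control (log2 fold change -1.61 ± 0.196, adjusted p = 6.69e-05). The exporter gene AQR1 fell 2.99-fold, and TPO2, a polyamine exporter, fell 4.20-fold.

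Other membrane lipids changed gene by gene. In phospholipid synthesis, 6 of 25 genes rose and 3 fell, beside 17.8% and 21.4% of all genes. INO1, which makes the inositol of phosphatidylinositol, had signals of 117, 139 and 162 with fenpropimorph, against 29.1, 30.4 and 30.2 in control (log2 fold change 2.21 ± 0.133, adjusted p = 1.71e-07). OPI3, a methyltransferase of phosphatidylcholine synthesis, had 566, 609 and 636 with fenpropimorph, against 290, 261 and 263 in control (log2 fold change 1.15 ± 0.097, adjusted p = 2.98e-06). Neither pair of groups overlapped. The 3 lower genes became 1 without the fenpropimorph array of day 2 or the control array of day 2, and 0 without the fenpropimorph or the control array of day 3.

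Fatty acid synthesis and desaturation had 5 of 17 genes lower, beside 21.4% of all genes (list median -0.01). ELO1, which elongates medium-chain fatty acids, had signals of 502, 406 and 356 with fenpropimorph, against 1620, 1400 and 1530 in control (log2 fold change -1.86 ± 0.117, adjusted p = 2.63e-07). It was the only one of the 5 past 2-fold, and the count fell to between 1 and 3 without any 1 of the 6 arrays. Of 26 sphingolipid genes, 9 rose and 6 fell. YSR3, a phosphatase of long-chain base phosphates, rose 14.0-fold, with 671, 914 and 1180 with fenpropimorph, against 69.7, 65.2 and 58.1 in control. LCB3, which encodes the related enzyme, fell, with 116, 104 and 95.4 with fenpropimorph, against 167, 148 and 156 in control (log2 fold change -0.58 ± 0.0965, adjusted p = 0.000725). ORM2, a regulator of sphingolipid synthesis, rose 2.17-fold and the ceramidase gene YDC1 rose 2.07-fold. IPT1 and SUR1, which add the head groups of complex sphingolipids, rose 2.05-fold and 1.86-fold.

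Eisosomes are protein-coated furrows of the plasma membrane rich in sterol. Of the 20 genes for eisosomes and related membrane compartments, 6 rose and 5 fell, beside 17.8% and 21.4% of all genes (list median -0.04). FHN1, a homologue of the furrow protein NCE102, had signals of 527, 610 and 716 with fenpropimorph, against 29.6, 37.7 and 26.5 in control (log2 fold change 4.31 ± 0.159, adjusted p = 7.52e-09). SUR7, which marks the same compartment, had 801, 631 and 648 with fenpropimorph, against 1680, 1650 and 1630 in control (log2 fold change -1.26 ± 0.0861, adjusted p = 5.09e-07). The SUR7 relatives PUN1 and FMP45 rose 2.86-fold and 2.21-fold. PMA1, the plasma membrane proton pump, was not called, with 4280, 4180 and 4150 with fenpropimorph and 4300, 4490 and 4350 in control (log2 fold change -0.06, 95% interval -0.19 to 0.08).

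The cell wall integrity pathway signals from sensors in the plasma membrane through the kinase SLT2 to wall-building genes. Of 43 genes of the pathway and its output, 21 rose and 4 fell, with a median log2 fold change of 0.22. SLT2 had signals of 452, 480 and 487 with fenpropimorph, against 219, 216 and 200 in control (log2 fold change 1.16 ± 0.0651, adjusted p = 9.54e-08). GSC2, the inducible glucan synthase subunit, had 1480, 1680 and 1710 with fenpropimorph, against 214, 188 and 214 in control (log2 fold change 2.98 ± 0.118, adjusted p = 1.05e-08). All 7 probe sets of GSC2 were called, at 2.37 to 3.25. NCW2, a wall protein, had 1430, 1780 and 1860 with fenpropimorph and 255, 238 and 235 in control, 6.93-fold higher.

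Other genes of the wall list that rose were SRL3 (6.14-fold) and YPS1, a wall-bound protease (3.86-fold). In contrast WSC4, a sensor-like membrane protein, had the largest fall of all named genes, with signals of 95.4, 63.4 and 49.5 with fenpropimorph, against 425, 320 and 338 in control (log2 fold change -2.42 ± 0.226, adjusted p = 7.43e-06). Chitin and glucan synthesis had 9 of 31 genes higher and 8 lower, beside 17.8% and 21.4% of all genes (list median -0.01). The 9 became 5 without the fenpropimorph array of day 3. The wall crosslinking enzyme gene CRH1 rose 1.97-fold and the chitin synthase gene CHS1 rose 1.86-fold. GAS3 and the glucanase gene EXG1 fell by 0.91 and 0.58 on the log2 scale.

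Calcineurin is a calcium-activated phosphatase that acts through the factor CRZ1. Of 19 genes for calcineurin and calcium balance, 8 rose and 1, FIG1, fell (log2 fold change -0.72 ± 0.137, adjusted p = 0.00188), a gene left out when only probe sets with a mean signal over 32 were tested. CMK2, a calmodulin-dependent kinase, had signals of 711, 736 and 699 with fenpropimorph, against 166, 108 and 128 in control (log2 fold change 2.44 ± 0.13, adjusted p = 6.77e-08). RCN1 and RCN2, which regulate calcineurin, rose 2.66-fold and 3.53-fold. PMC1, the vacuolar calcium pump, rose 1.96-fold. GSC2, described above, is counted in this list too and rose most in it. PHO89, a sodium and phosphate symporter, is counted with the phosphate regulon and not among these 19 genes. Its signals were 1630, 1560 and 1990 with fenpropimorph, against 215, 264 and 189 in control (log2 fold change 2.96 ± 0.168, adjusted p = 1.07e-07). The transcript of CRZ1 itself was not called, with 124, 113 and 122 with fenpropimorph and 119, 112 and 108 in control (log2 fold change 0.08, 95% interval -0.09 to 0.25).

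The general stress response, run by the factors MSN2 and MSN4, was the list with the most genes higher. Of its 40 genes, 32 rose, 14 of them at least 2-fold, and 3 fell, with a median log2 fold change of 0.78. HSP12, a membrane-stabilising small protein, had signals of 2630, 4020 and 3910 with fenpropimorph, against 1130, 822 and 736 in control (log2 fold change 1.97 ± 0.193, adjusted p = 1.11e-05). TFS1, an inhibitor of carboxypeptidase Y, had 1200, 1640 and 1620 with fenpropimorph, against 363, 300 and 275 in control (log2 fold change 2.25 ± 0.129, adjusted p = 1.17e-07). In each of these genes day 1 had the lowest treated and the highest control signal, and the groups were still apart. The small heat shock protein gene HSP26 rose 3.76-fold, and the polyubiquitin gene UBI4 rose 3.19-fold.

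Neither regulator's own transcript was called higher. MSN4 fell, with 121, 102 and 89 with fenpropimorph, against 170, 166 and 207 in control (log2 fold change -0.80 ± 0.142, adjusted p = 0.00117), and MSN2 was not called (log2 fold change 0.16, 95% interval -0.03 to 0.34). The 3 lower stress genes became 1 without the fenpropimorph array of day 2 or day 3 or the control array of day 1. Trehalose and glycogen genes gave 12 higher and 3 lower of 24, with the trehalose synthesis genes TPS1 and TPS2 at 1.73-fold and 1.87-fold and the glycogenin gene GLG1 lower by 1.04 on the log2 scale. The 3 became 1 without the fenpropimorph array of day 3 or the control array of day 1.

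Of 34 genes of the proteasome and its regulator, 29 rose and none fell, each by a small amount, with a median log2 fold change of 0.31. RPN4, the transcription factor that drives proteasome genes, had signals of 489, 530 and 480 with fenpropimorph, against 240, 262 and 227 in control (log2 fold change 1.04 ± 0.0902, adjusted p = 3.88e-06). It was the 1 member past 2-fold. The subunit gene RPT2, next in size, had 229, 239 and 233 with fenpropimorph and 177, 174 and 174 in control, 1.33-fold higher. Cytosolic chaperones rose in 12 of 26 cases, led after HSP26 by HSP42 (2.67-fold) and HSP104 (2.15-fold), which act on aggregated proteins. In the unfolded protein response of the endoplasmic reticulum, 4 of 20 genes rose and 2 fell, beside 17.8% and 21.4% of all genes. The 2 became 0 or 1 without any 1 of the 6 arrays. HAC1, its transcription factor, rose 1.55-fold, with 4 of its 5 probe sets called.

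Autophagy and vacuolar proteolysis had 19 of 29 genes higher and none lower. PRB1, the vacuolar proteinase B, had signals of 1190, 1330 and 1360 with fenpropimorph, against 381, 337 and 325 in control (log2 fold change 1.89 ± 0.0863, adjusted p = 2.61e-08). ATG8, the ubiquitin-like protein of autophagosome membranes, had 546, 650 and 639 with fenpropimorph, against 217, 211 and 173 in control (log2 fold change 1.61 ± 0.108, adjusted p = 4.23e-07). Both were above control on every array. In defence against oxidants, 14 of 30 genes rose and none fell. After TSA2 the largest changes were in the glutathione transferase GTT1 (3.08-fold) and the cytosolic catalase CTT1 (2.21-fold). Of 25 genes for osmotic stress and glycerol, 7 rose and 2 fell, with GPP2, a glycerol phosphatase, 4.69-fold and GPD1, the enzyme before it, 1.89-fold higher. The 2 lower osmotic genes became 1 without the control array of day 3.

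**Figure D4:**
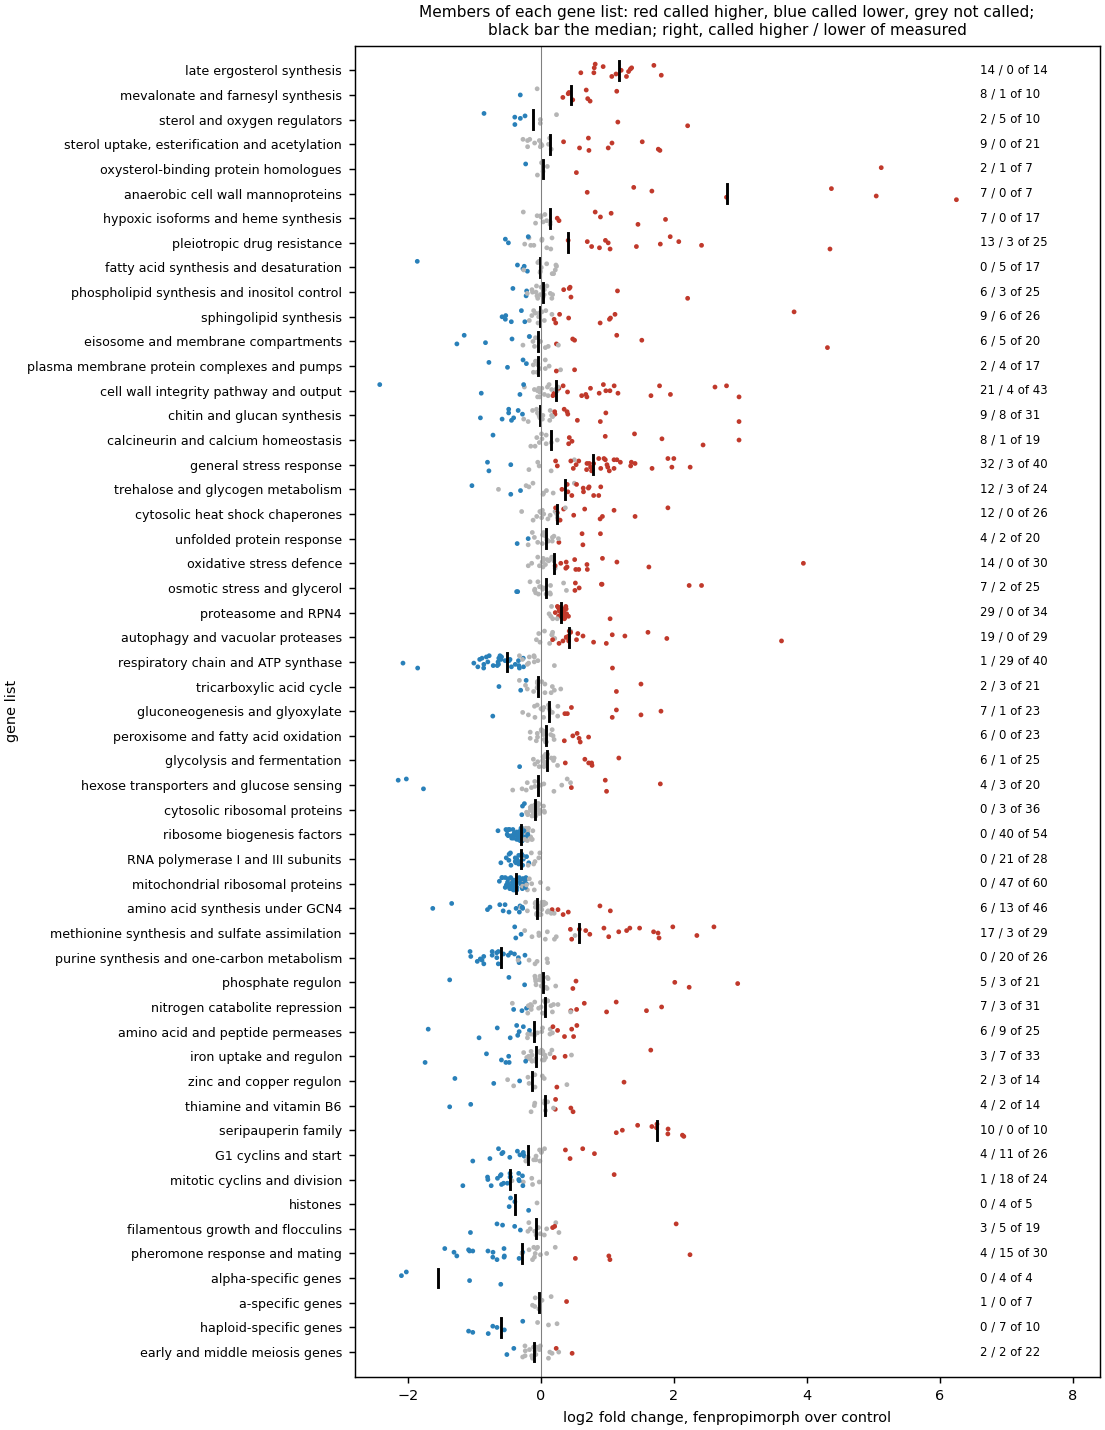
Log2 fold change of every measured member of 53 gene lists, each dot a gene, red where called higher, blue where called lower and grey where not called, with a black bar at the list's median and the counts at the right. The medians range from -1.55 for the alpha-specific genes to 2.79 for the anaerobic mannoproteins.

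Respiration went down. The respiratory chain and the ATP synthase had 29 of 40 genes lower and 1 higher, with a median log2 fold change of -0.51 against -0.06 over all genes. CYC1, the aerobic cytochrome c, had signals of 94.4, 82.9 and 99.1 with fenpropimorph, against 399, 252 and 363 in control (log2 fold change -1.85 ± 0.157, adjusted p = 3.13e-06). COX4, a subunit of cytochrome oxidase, had 464, 387 and 400 with fenpropimorph, against 981, 711 and 836 in control (log2 fold change -1.01 ± 0.113, adjusted p = 3.34e-05). The treated arrays of both lay below every control, and QCR10, of complex III, fell 1.93-fold. COA2, which helps to assemble cytochrome oxidase, fell 2.89-fold.

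The NADH dehydrogenases of the outer face of the inner mitochondrial membrane moved in opposite directions. NDE1 had 340, 261 and 303 with fenpropimorph, against 1510, 1040 and 1270 in control (log2 fold change -2.07 ± 0.167, adjusted p = 2.13e-06). NDE2, the 1 respiratory gene called higher (2 without the control array of day 1, and 2 under median centring, 16 added before the log, a mean signal over 32, 1 probe set per gene or the trended robust prior), had 48.2, 54 and 59.4 with fenpropimorph, against 26, 28.6 and 22.2 in control (log2 fold change 1.08 ± 0.101, adjusted p = 7.95e-06). HAP4, the activator of respiratory genes, had 113, 66.7 and 78.1 with fenpropimorph and 154, 116 and 181 in control (log2 fold change -0.82 ± 0.262, adjusted p = 0.0338), and without single arrays its adjusted p was up to 0.13. Of 60 mitochondrial ribosomal protein genes, 47 fell and none rose, with a median of -0.38. MRPL20 had 164, 164 and 160 with fenpropimorph, against 247, 242 and 244 in control, a fall with little spread (log2 fold change -0.59 ± 0.0633, adjusted p = 2.5e-05).

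Central carbon genes were mixed. In the tricarboxylic acid cycle, 2 of 21 genes rose and 3 fell, beside 17.8% and 21.4% of all genes. The 2 became 4 without the control array of day 1. The 2 that rose encode enzymes outside the mitochondrion, CIT2 in peroxisomes (2.84-fold) and MDH2 in the cytosol (2.20-fold), while the mitochondrial MDH1 fell by 0.63 on the log2 scale. Gluconeogenesis and the glyoxylate cycle had 7 of 23 genes higher and 1 lower, the transporter gene ATO3 (log2 fold change -0.72). Among those that rose were PCK1 (2.11-fold), the first committed enzyme, and the putative acetate transporter gene ATO2 (3.50-fold). The 7 became 4 when only probe sets with a mean signal over 32 were tested. Glucose uptake genes also split, with 4 of 20 higher and 3 lower, near the shares over all genes (17.8% and 21.4%). HXT7, a high-affinity glucose transporter, had 933, 786 and 627 with fenpropimorph, against 3600, 3390 and 3250 in control (log2 fold change -2.14 ± 0.183, adjusted p = 3.42e-06). HXT6 fell 3.40-fold, but HXT6 and HXT7 are near-identical and their signals may not be separable. HXT4 fell 4.06-fold. HXT5, a transporter of slow-growing cells, had 58.4, 70.5 and 67.4 with fenpropimorph, against 17.5, 19.7 and 19.2 in control (log2 fold change 1.80 ± 0.0903, adjusted p = 4.58e-08, and 1.22 with 16 added before the log).

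Genes that build ribosomes fell by small amounts. Of 54 ribosome biogenesis factors, 40 fell and none rose, with a median log2 fold change of -0.30. SSF1, which acts in large subunit assembly, fell most, with 76.8, 68.2 and 90.5 with fenpropimorph, against 117, 121 and 127 in control (log2 fold change -0.64 ± 0.107, adjusted p = 0.000761). UTP15, of the small subunit processome, and DBP3, an RNA helicase, fell 1.44-fold and 1.42-fold. The count of 40 was 20 without the fenpropimorph array of day 2, 26 without the control array of day 1 and 23 without the control array of day 3. Of 28 subunits of RNA polymerases I and III, which transcribe ribosomal and transfer RNA genes, 21 fell and none rose, also with a median of -0.30. RRN11, an initiation factor for RNA polymerase I, had 34.5, 34.1 and 33.8 with fenpropimorph, against 51.4, 51.4 and 52.5 in control (log2 fold change -0.60 ± 0.0762, adjusted p = 9.33e-05). Its arrays hardly varied within either group. Cytosolic ribosomal protein genes moved less still, with 3 of 36 lower, none higher and a median of -0.09, close to that of all genes. The 3 became 6 to 8 under several other settings of the fit.

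Transcripts of sulfur metabolism were higher. Of 29 genes for methionine synthesis and sulfate assimilation, 17 rose, 11 of them at least 2-fold, and 3 fell, with a median log2 fold change of 0.58. MET14, the kinase of sulfate activation, had signals of 422, 518 and 504 with fenpropimorph, against 80.5, 78.7 and 77.6 in control (log2 fold change 2.60 ± 0.102, adjusted p = 1.01e-08). MET3, the enzyme before it, had 276, 337 and 318 with fenpropimorph, against 59.7, 62.4 and 60.2 in control (log2 fold change 2.35 ± 0.0947, adjusted p = 1.12e-08). In both, the control arrays were nearly alike and the treated arrays were several times higher. MET17, which fixes sulfide into homocysteine, rose 3.39-fold and STR3, which makes homocysteine from cystathionine, rose 3.96-fold. The 3 lower genes became 1 without the fenpropimorph array of day 2.

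Purine synthesis and one-carbon metabolism fell instead, with 20 of 26 genes lower, none higher and a median of -0.60. ADE6, which acts midway in purine synthesis, had 1630, 1170 and 1240 with fenpropimorph, against 2660, 2870 and 2750 in control (log2 fold change -1.05 ± 0.126, adjusted p = 5.85e-05). GCV2, a subunit of the glycine cleavage complex, fell 2.09-fold. The amino acid genes under GCN4 split, with 6 of 46 higher and 13 lower. ARG1 had 318, 236 and 217 with fenpropimorph, against 870, 359 and 845 in control (log2 fold change -1.34 ± 0.3, adjusted p = 0.00522). ARG3, likewise of arginine synthesis, had 16.9, 11.3 and 16 with fenpropimorph, against 62, 22.8 and 63.4 in control (log2 fold change -1.62 ± 0.345, adjusted p = 0.00376, and -1.02 with 16 added before the log). The day 2 control was low for both, though still above all treated arrays. LEU2 and LEU1, of leucine synthesis, rose 2.06-fold and 1.85-fold. GCN4 itself was not called (log2 fold change -0.06, 95% interval -0.21 to 0.09).

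Genes for the use of poor nitrogen sources gave 7 of 31 higher and 3 lower, beside 17.8% and 21.4% of all genes. CAR2 and CAR1, which break down arginine, rose 3.52-fold and 2.19-fold, and PUT1, which breaks down proline, rose 3.01-fold. Amino acid and peptide permeases had 6 of 25 higher and 9 lower, and the 6 became 3 without the control array of day 1 and 2 without that of day 2. The oligopeptide transporter genes OPT2 and OPT1 fell 3.23-fold and 1.90-fold. In the phosphate regulon, 5 of 21 genes rose and 3 fell, beside the same shares of all genes. Besides PHO89, PHM8, a phosphatase of nucleotides, rose 4.04-fold, whereas the secreted acid phosphatase gene PHO5 had 299, 251 and 291 with fenpropimorph and 355, 281 and 264 in control and was not called (log2 fold change -0.09, 95% interval -0.33 to 0.16).

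Metal genes changed singly. Of 33 iron genes, 3 rose and 7 fell, no larger a share than over all genes (17.8% rose and 21.4% fell). The 7 became 4 without the fenpropimorph array of day 3 or the control array of day 1. FET3, the multicopper oxidase of high-affinity iron uptake, had 367, 389 and 361 with fenpropimorph, against 1420, 1050 and 1280 in control (log2 fold change -1.74 ± 0.135, adjusted p = 1.5e-06). FTR1, its partner permease, fell 1.76-fold. TIS11, which degrades transcripts of iron-using proteins, had 78.7, 108 and 94.6 with fenpropimorph, against 34.9, 28.1 and 26.4 in control (log2 fold change 1.65 ± 0.189, adjusted p = 3.99e-05). The zinc transporter genes ZRT1 and ZRT2 fell 2.45-fold and 1.63-fold, and all 4 probe sets of ZRT1 were called. CUP2, the copper-sensing activator, rose 2.38-fold.

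Genes of cell division were lower. In a bulk culture, fewer cells of a type or cycle stage and less RNA per cell cannot be told apart. Of 24 genes for mitotic cyclins and division, 18 fell and 1 rose, with a median log2 fold change of -0.46. CLB1, a mitotic cyclin, had signals of 113, 92.4 and 92.1 with fenpropimorph, against 266, 191 and 216 in control (log2 fold change -1.17 ± 0.127, adjusted p = 2.6e-05). CLB2, the main mitotic cyclin, had 48.5, 43.1 and 46.7 with fenpropimorph, against 77.7, 81.3 and 81.6 in control (log2 fold change -0.80 ± 0.0624, adjusted p = 1.6e-06). Both cyclins were lower on every treated array. The 1 member that rose was PST1 (2.15-fold), which encodes a cell wall protein. Of 26 genes of G1 and entry into S phase, 4 rose and 11 fell. PCL1, a G1 cyclin, rose 1.55-fold and RNR2, a ribonucleotide reductase subunit, rose 1.75-fold. PCL9, a cyclin of the end of mitosis, MCM7, of the replicative helicase, and CDC6, a licensing factor listed with division, fell by 0.76, 0.64 and 0.80 on the log2 scale. Of the 5 histone genes with a probe set of their own, 4 fell, 2 without the control array of day 1 or day 3.

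Genes of mating also fell. All 4 alpha-specific genes were lower, and their summed signal was 4880 to 5890 with fenpropimorph and 11100 to 11300 in control. MF(ALPHA)2, which encodes the minor alpha-factor precursor, had 533, 434 and 373 with fenpropimorph, against 1930, 1840 and 1900 in control (log2 fold change -2.09 ± 0.11, adjusted p = 6.05e-08). MF(ALPHA)1, which encodes the main one, had 4110, 3910 and 3550 with fenpropimorph, against 5800, 6060 and 5670 in control (log2 fold change -0.60 ± 0.0664, adjusted p = 3e-05). SAG1, the alpha-agglutinin, fell 4.06-fold and STE3, the receptor for a-factor, fell 2.10-fold. Haploid-specific genes fell in 7 of 10 cases, with GPA1, the G protein alpha subunit of the pheromone receptor, at 77, 73.2 and 75.3 with fenpropimorph and 127, 126 and 119 in control.

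Of 30 genes of the pheromone response, 15 fell and 4 rose, with a median log2 fold change of -0.28. FUS1, a cell fusion gene and a standard reporter of the pathway, had 28.2, 29.9 and 24.8 with fenpropimorph, against 71.2, 63.4 and 63.9 in control (log2 fold change -1.26 ± 0.0989, adjusted p = 1.66e-06). FUS3, the pathway's kinase, fell 2.12-fold, with 2 of its 3 probe sets called. FAR1, which arrests the cycle, fell 2.03-fold, SST2, which damps the signal, 2.47-fold, and AGA1, the anchor of agglutinin, 2.72-fold. The factor STE12 fell 1.58-fold. Of the 4 that rose, 3 were at least 2-fold higher. PRM4, a pheromone-regulated membrane protein, rose most, with 633, 708 and 718 with fenpropimorph, against 134, 140 and 161 in control (log2 fold change 2.24 ± 0.102, adjusted p = 2.61e-08). Filamentous growth, which shares STE12, had 3 of 19 genes higher and 5 lower, near the shares over all genes (17.8% and 21.4%). Its partner TEC1 was 2.08-fold lower and the repressor NRG2 4.10-fold higher. The 3 became 1 without the fenpropimorph array of day 1 or 2 or the control array of day 1, and the 5 became 3 without the control array of day 3.

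**Figure D5:**
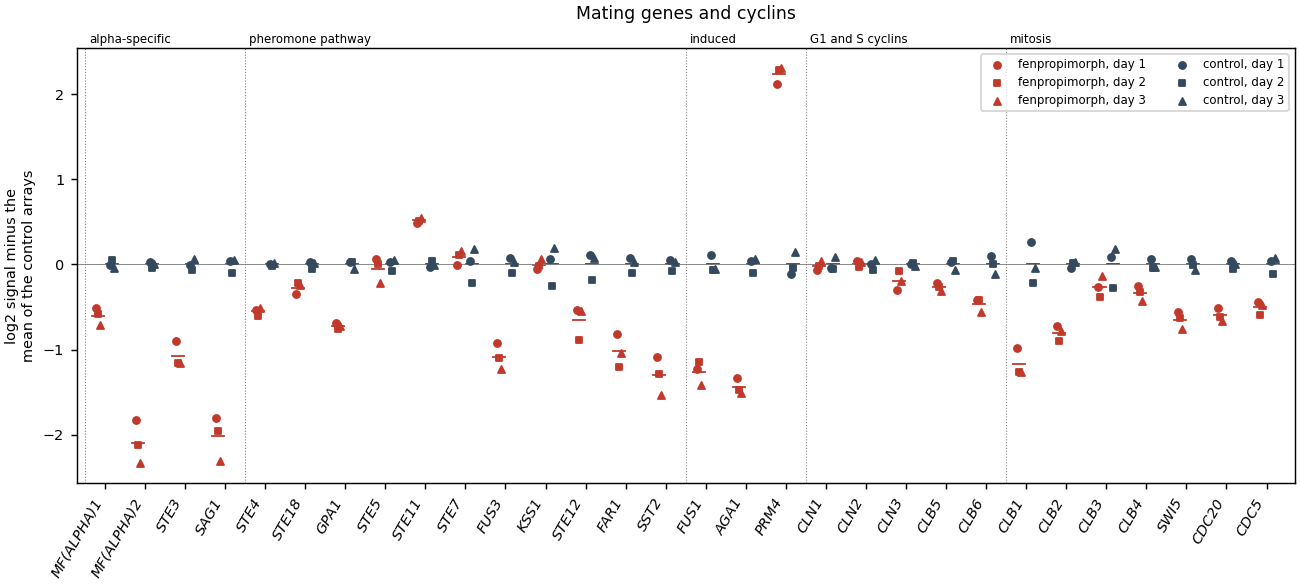
Log2 signal of each array minus the mean of the control arrays for mating genes and cyclins, with fenpropimorph arrays in red, control arrays in dark blue and lines at the group means. MF(ALPHA)2, SAG1, STE3 and the mitotic cyclins CLB1 and CLB2 lie below control on all 3 days, and PRM4 lies above at a log2 fold change of 2.24.

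Tomatidine, the steroidal aglycone of the tomato alkaloid tomatine, also raised sterol genes, and the difference between fenpropimorph and tomatidine was tested in the same fit. Of the 5656 genes, 1017 were higher (18.0%) and 1282 lower (22.7%) with fenpropimorph than with tomatidine. The doses differed, at 0.313 ppm fenpropimorph and 0.625 ppm tomatidine, and each was the only one measured. Of the 14 late ergosterol genes, 10 were higher with fenpropimorph and none lower. ERG26 differed most, by a log2 difference of 0.92 (adjusted p = 8.21e-06). ERG3 (0.14, adjusted p = 0.131), ERG4 (-0.15, adjusted p = 0.0984), ERG6 (0.26, adjusted p = 0.184) and ERG24 (0.40, adjusted p = 0.0592) did not pass the test. UPC2 was higher with fenpropimorph by 1.42 on the log2 scale (adjusted p = 1.72e-05), DAN1 by 1.17 (adjusted p = 0.0227) and HES1 by 1.94 (adjusted p = 3.73e-05). ATF2 (-0.14, adjusted p = 0.195, 95% interval -0.30 to 0.02) and YEH1 (-0.01, adjusted p = 0.963, 95% interval -0.30 to 0.28) were not called between the compounds.

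Genes outside sterol metabolism differed between the compounds too. RTA1 was higher with fenpropimorph than with tomatidine by 4.42 on the log2 scale (adjusted p = 1.71e-10), MNC1 by 4.11 (adjusted p = 9.29e-08) and HSP12 by 2.97 (adjusted p = 5.42e-07). All of these were well past the spread between arrays. Against control, HSP12 was itself lower with tomatidine (log2 fold change -1.0, adjusted p = 0.0123). The list of cell wall integrity genes had 24 of 43 higher with fenpropimorph than with tomatidine, the general stress list 34 of 40, the proteasome list 23 of 34 and the autophagy list 21 of 29. The general stress median over control was 0.78 with fenpropimorph, -0.22 with tomatidine and -0.28 with tomatine. Of the 54 ribosome biogenesis genes, 53 were lower with fenpropimorph than with tomatidine. Their median log2 fold change over control was -0.3 with fenpropimorph, 0.18 with tomatidine and 0.38 with tomatine. Of the 46 GCN4-controlled genes, 33 were lower with fenpropimorph than with tomatidine, and 24 were called higher with tomatidine than in control. ARG1 was lower by 2.81 and PHO5 by 1.37 on the log2 scale (adjusted p = 2.81e-05 and 3.78e-06).

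The 3 control arrays served for both compounds, and log2 fold changes over them are given here side by side. In the respiratory list the median was -0.51 with fenpropimorph and -0.37 with tomatidine, and 6 of its 40 genes were lower with fenpropimorph than with tomatidine. With tomatine, over the same control arrays, the median of that list was -0.23, and 7 of the 40 genes were called lower. CYC1 stood at -1.85 with fenpropimorph and -1.47 with tomatidine, a difference that did not pass the test (adjusted p = 0.0913). TPO2 stood at -2.07 with fenpropimorph and -1.93 with tomatidine (adjusted p = 0.837 for the difference). In the seripauperin list the medians were 1.74 with fenpropimorph and 0.25 with tomatidine, and all 10 genes were higher with fenpropimorph. ARG1 and PHO5 stood at -1.34 and -0.09 with fenpropimorph, against 1.47 and 1.28 with tomatidine.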

How the data were processed

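RNA from 12 yeast cultures was measured on 1 Affymetrix array each, and 9335 probe sets were deposited. The deposited values are intensities that the authors made with RMA, per the submitters' processing notes, which give no version, array definition or build. They are linear (1.84 to 21252), although log2 values had been planned for, so log2 was taken here. After removal of 60 control probe sets, 9275 were tested. Of these, 6504 name 1 gene in the platform annotation, 328 several and 2443 none. The probe set with the highest mean stands for each of 5656 genes, and printed signals are rounded to 3 significant digits.

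Using limma 3.58.1 under R 4.3.3, all 12 arrays entered 1 linear model with a mean per group, and variances were moderated (3.65 prior and 8 residual degrees of freedom). Tests were two-sided, with p-values adjusted by Benjamini-Hochberg. Intervals at 95% are not adjusted. An exact permutation test of 3 against 3 arrays could not go below p = 0.1 and was not used. Replicate numbers mark a shared day of culture, per the labels, and so pair the samples. Deviations from the group means of same-day fenpropimorph and control arrays correlated at 0.0716, 0.182 and 0.125. Day was a block in an alternative. Other alternatives were quantile normalization, median centring, 16 added before the log, probe sets with a mean over 32, 1 probe set per gene, only the 2 compared groups, array weights, a trended robust prior, a change of at least 2-fold and leaving out each array.

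The arrays, 53 gene lists (1330 entries, 1263 measured) and the rule for named genes were chosen with earlier results of these data known. The rule took the 20 highest and 20 lowest called genes that moved the same way on each day, all members of the 3 sterol lists and of the oxysterol-binding list, the 5 largest called changes of each other list and the largest called change in the opposite direction, and 17 fixed genes such as PDR5 and ACT1. In simulated data with 9275 probe sets, 50 were raised 1.5-fold, 50 2-fold and 50 4-fold, and 50 were lowered 2-fold. The simulated noise was independent between arrays and between probe sets. Of the rises 78%, 94% and 100% were called, and of the falls 96%, with 10 false calls of 194. Far fewer probe sets were changed there than were called in the real data (30.3%), so these shares may not carry over to it. Promoter, protein and probe sequences were not used here. Python 3.11.15 with matplotlib 3.10.9 drew the figures.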

Additional observations from a re-analysis of the deposited data

How the results depend on the processing

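The count of 2808 changed probe sets stayed between 2534 and 3215 under quantile normalization, median centring, 16 added before the log, only the 2 compared groups, array weights and a trended robust prior. It was 2760 of the 6357 tested with a mean over 32, and 2529 of the 5656 tested with 1 probe set per gene. Asking also for a change of at least 2-fold left 335. With the day as a replicate block, 2762 probe sets were called (1236 higher, 1526 lower), 4 of the 279 called named genes were not called and no other named gene's call changed. The share of higher calls was 44.1%, and 48.4% after median centring. Without 1 fenpropimorph or control array, 2135 to 2637 probe sets were called. Among the named genes, 33 lost their call without some 1 array, 18 under another setting, and none turned its direction. Adding 16 before the log lowered the folds of dim genes most. All changes rest on 3 cultures per group, 1 dose and 1 time.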

Other observations

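Probe sets that match several genes were left out of the gene counts. The clearest group among them, chosen after the values were seen, covers reading frames of the retrotransposon Ty4. All 30 such probe sets rose with fenpropimorph, 26 at least 2-fold, with log2 fold changes from 0.35 to 3.51 and a median of 2.19. Their median signal was 131, 157 and 193 with fenpropimorph and 39.1, 37.5 and 39.1 in control on days 1, 2 and 3. It was 64.1, 73.6 and 58.1 with tomatidine and 40.1, 36.8 and 30.3 with tomatine. The Ty4 copies are near-identical, so these probe sets share their target sequence and are not independent of one another. Against the same control arrays, 17 of the 30 were called with tomatidine. With tomatine limma called 0, at a median log2 fold change of -0.06.

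Of the 2443 probe sets with no gene in the annotation, 90 were higher and 217 lower, 10 and 9 of them at least 2-fold. Of the 328 that name several genes, 60 were higher and 24 lower, 38 and 1 at least 2-fold.

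The day 1 fenpropimorph culture was the mildest in most strongly changed genes. Of the 211 genes at least 2-fold higher, 149 had their lowest treated signal on day 1, 30 on day 2 and 32 on day 3. Measured against the control of the same day, their median log2 change was 1.33 on day 1, 1.56 on day 2 and 1.64 on day 3. Of the 43 genes at least 2-fold lower, 36 had their highest treated signal on day 1. The same pattern was visible in the first principal component, where that array scored lowest of the 3. Its part in any result was not tested beyond leaving the array out.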
